A study of Arabidopsis thaliana with 12 samples.

Results

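The transcriptome of ka120 ndr1 rosette leaves was compared with that of ka120 rosette leaves, gene by gene over the whole count table of Arabidopsis thaliana. The comparison rests on 6 of the 12 libraries of the series, 3 of ka120 ndr1 and 3 of ka120, chosen by the genotype in their labels. All 34262 genes of the table entered, of which 22351 passed the filter on low counts and were tested. The question addressed is what an added ndr1 mutation changes in plants that already carry ka120.

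All 4 genotypes of the series were sequenced as 3 libraries each: the double mutants ka120 ndr1 and ka120 pad4, the mutant ka120, and the wild type Col-0. Both groups compared here carry ka120, and only ka120 ndr1 also carries ndr1. By the labels, every plant was 3 weeks old and untreated and had grown in soil at 22 °C under days of 16 h light and nights of 8 h, and mRNA came from rosette leaves. The sources used here name no alleles, sampling time or batches, and a plant with ndr1 alone was not among the libraries analysed here. The labels leave unsaid whether replicates are separate plants, so the p-values reflect only how far these libraries spread. Since whole leaves were sampled, fewer cells of a type and less RNA per cell cannot be told apart.

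NDR1 is a plasma membrane protein that signals downstream of several immune receptors of the coiled-coil NLR class, among them the receptors RPS2 and RPM1, and it promotes accumulation of the defence hormone salicylic acid (SA). PAD4 acts with EDS1 downstream of the TIR class of NLR receptors, a branch usually described beside that of NDR1. KA120 is a nuclear transport receptor of the importin beta family, and plants that lack it keep immune responses switched on without a pathogen. SA made in such plants drives pathogenesis-related (PR) genes.

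Depth was 68436911 to 81727498 counts per ka120 ndr1 library and 78305746 to 85884840 per ka120 library. On the first principal component, which held 54.5% of the variance, ka120 ndr1 lay at 26.4 to 43.1, ka120 at 51.3 to 75.2, ka120 pad4 at -3.2 to 31.7 and Col-0 at -116 to -112. The ka120 libraries were not even: replicate 3 lay at 51.3, nearest to ka120 ndr1, and replicates 1 and 2 at 70.9 and 75.2. Photosynthesis genes took 12.7% to 13.6% of the counts in ka120 ndr1, 12.9% in ka120 replicate 3, and 11.7% and 11.5% in ka120 replicates 1 and 2. The part of this unevenness in the results was not tested, and counts are given below also with single libraries left out.

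NDR1 (AT3G20600, chromosome 3, 7194771 to 7195769) checked the labels. It had 0, 12 and 8 counts in the ka120 ndr1 libraries, which is 0, 0.166 and 0.0959 CPM (counts scaled to the effective library size), against 13.4, 14.4 and 11.5 CPM in ka120. Levels were 5.28, 8.47 and 7.84 CPM in ka120 pad4 and 5.63, 5.39 and 4.79 CPM in Col-0. The ka120 ndr1 libraries all lay far below every other library, and the change against ka120 was -7.27 ± 0.43 on the log2 scale (approximate SE; edgeR quasi-likelihood test, Benjamini-Hochberg adjusted p = 6.68e-06).

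KA120 (AT3G08960, chromosome 3, 2729743 to 2737356) had 4.57, 5.43 and 5.03 CPM in ka120 ndr1, against 4.99, 4.80 and 6.03 CPM in ka120. Col-0 held 24.2, 33.0 and 30.4 CPM. The ka120 ndr1 and ka120 libraries overlapped, with a log2 difference of -0.07 ± 0.14 (adjusted p = 0.803), and all of them lay below Col-0. Of 40 tested genes within 100 kb of NDR1, 0 passed the test in the edgeR fit apart from NDR1 itself. Over all genes, 1327 of 22351 passed the same threshold (5.94%), and 5229 met the looser threshold of an unadjusted p under 0.05. Within 100 kb of KA120, 5 of 56 tested genes were higher and 2 lower in ka120 ndr1, beside 3.2% higher and 2.74% lower over all genes. The called genes near KA120 included LHCB4.2 and PYD4, which are described below.

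Across all genes, 1327 of 22351 passed an adjusted p under 0.05 (5.94%), of which 715 were higher (3.2%) and 612 lower (2.74%) in ka120 ndr1 than in ka120. The changes were mostly small among the higher genes: 31 were at least 2-fold higher (0.139%) and 176 at least 2-fold lower (0.787%). The libraries of the groups did not overlap for 6572 genes (29.4%). For scale, 535 genes passed between ka120 ndr1 and ka120 pad4 (2.39%), 198 of them higher (0.886%) and 337 lower (1.51%) in ka120 ndr1. Against Col-0, 10822 genes passed for ka120 ndr1 (48.4%; 24.9% higher and 23.5% lower) and 12276 for ka120 (54.9%; 28% higher and 27% lower). These comparisons share libraries with each other.

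**Figure D1:**
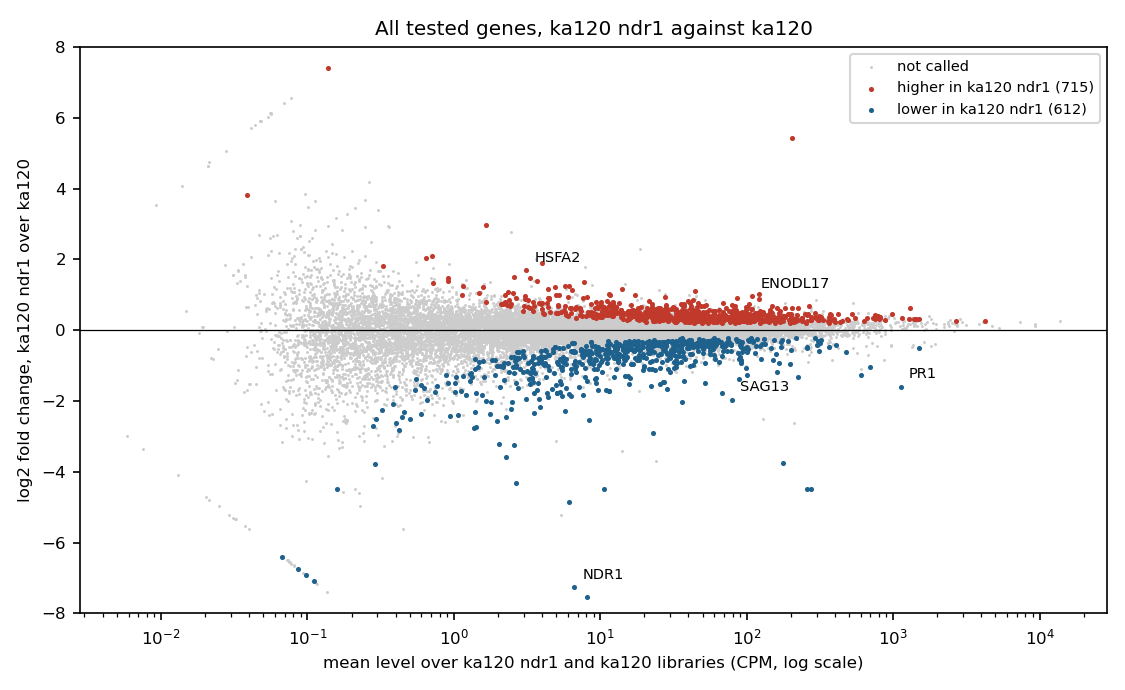
Log2 fold change of ka120 ndr1 over ka120 (vertical axis) against the mean level in CPM over those 6 libraries (horizontal log axis), 1 point per tested gene, with genes that passed the test coloured. Of the 715 higher genes 31 are at least 2-fold higher, and of the 612 lower genes 176 are at least 2-fold lower; 3 genes beyond ±8 are not drawn.

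The number of calls turned on single libraries. It was 211, 459 and 725 without ka120 ndr1 replicate 1, 2 or 3, and 148, 136 and 2232 without ka120 replicate 1, 2 or 3. None of the 1327 genes changed sign in any of these fits. Of the 59 called members of the gene lists described below, 56 still passed without ka120 replicate 3, against 4 to 23 when any of the other 5 libraries was left out, and 4 passed in all 6 of these fits: NDR1, DND1, AT2G30766 and IAA29. Over the whole table, 110 genes passed under every alternative tried, and they are described after the lists.

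**Figure D2:**
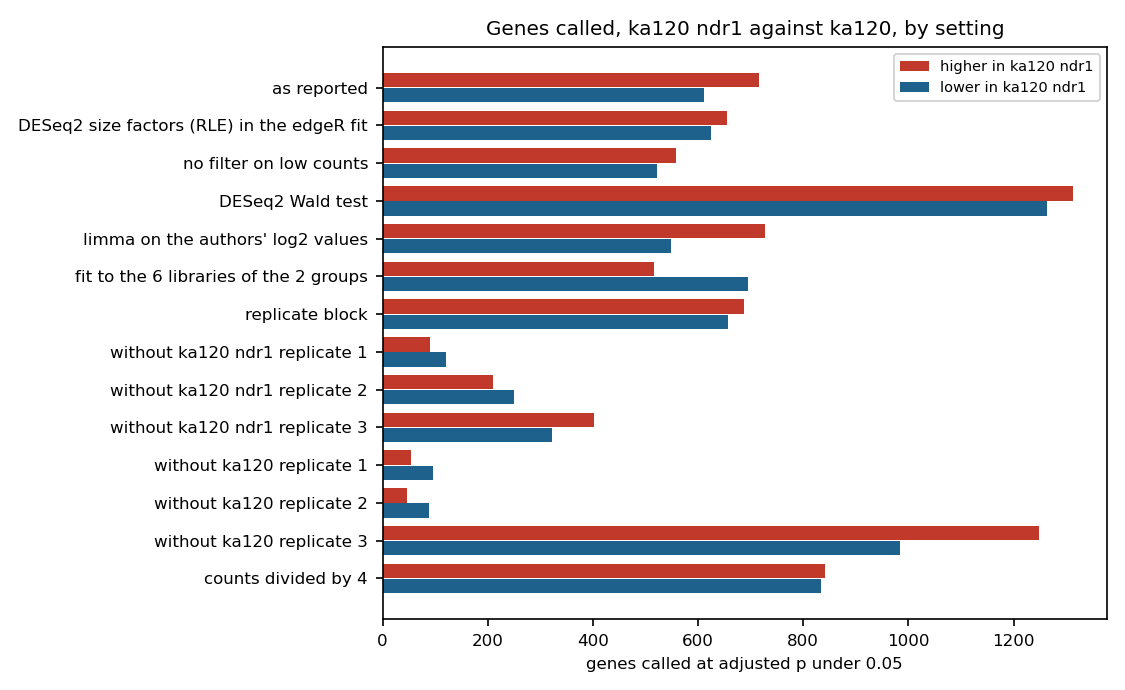
Genes called higher and lower in ka120 ndr1 than in ka120 at adjusted p under 0.05 (horizontal axis) under the fit as reported and each alternative. Leaving out ka120 replicate 3 gave 2232 calls and leaving out ka120 replicate 2 gave 136.

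Of 14 tested PR and SA marker genes, 6 fell in ka120 ndr1 against ka120 and 8 did not pass, and all 14 were higher in ka120 ndr1 than in Col-0 by the test against Col-0. PR1, the most used marker of SA signalling, had 521, 685 and 472 CPM in ka120 ndr1, against 1666, 2005 and 1397 CPM in ka120. The groups did not overlap. It fell by 1.59 ± 0.38 on the log2 scale (adjusted p = 0.0328), and Col-0 libraries held at most 0.0674 CPM. The 6 that fell were PR1, BGL2, PR5, PNP-A, NUDT6 and SAG13. The median log2 change of the list was -0.97, beside -8.9e-05 over all genes tested, and the groups did not overlap for 9 of the 14. Over all genes tested the groups did not overlap for 29.4%, while 2.74% were called lower and 3.2% higher. Every list count below is to be read beside these shares.

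BGL2 (PR2), a beta-1,3-glucanase, had 324, 416 and 311 CPM in ka120 ndr1, against 952, 943 and 657 CPM in ka120, a log2 change of -1.28 ± 0.31 (adjusted p = 0.0351). NUDT6, a nudix hydrolase induced by SA, had 24.5, 33.3 and 24.6 CPM in ka120 ndr1, against 84.1, 92.7 and 53.0 CPM in ka120 (log2 change -1.48 ± 0.33, adjusted p = 0.0283). Neither gene's groups overlapped, and for both ka120 replicate 3 was the lowest ka120 library. SAG13, a short-chain dehydrogenase induced in senescing and infected leaves, had 27.9, 30.3 and 38.9 CPM in ka120 ndr1, against 88.1, 160 and 130 CPM in ka120 (log2 change -1.96 ± 0.43, adjusted p = 0.0258). For SAG13 ka120 replicate 3 was not the lowest library. The count of fallen markers was 8 without ka120 replicate 3 and 0 without any 1 of the other 5 libraries; without ka120 replicate 2, PR1 changed by -1.46 with an adjusted p of 0.14.

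The 300 bases upstream of the annotated start of BGL2 and NUDT6 are shown because these genes fell together and are known targets of SA signalling. They were read from TAIR10.1 on the strand of each gene, and lie at chr3:21189968-21190267 (minus strand) and chr2:1543020-1543319 (plus strand). Capitals mark TTGAC, the core of the W-box that WRKY factors bind, and TGACG, the core bound by TGA factors, on either strand (reverse GTCAA and CGTCA). In BGL2 they overlap as TTGACG.
BGL2: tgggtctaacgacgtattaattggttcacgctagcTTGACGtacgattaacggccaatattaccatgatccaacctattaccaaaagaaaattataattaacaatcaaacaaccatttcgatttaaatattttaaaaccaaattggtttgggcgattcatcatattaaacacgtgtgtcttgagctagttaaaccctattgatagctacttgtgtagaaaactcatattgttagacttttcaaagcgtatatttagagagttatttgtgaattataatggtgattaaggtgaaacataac
NUDT6: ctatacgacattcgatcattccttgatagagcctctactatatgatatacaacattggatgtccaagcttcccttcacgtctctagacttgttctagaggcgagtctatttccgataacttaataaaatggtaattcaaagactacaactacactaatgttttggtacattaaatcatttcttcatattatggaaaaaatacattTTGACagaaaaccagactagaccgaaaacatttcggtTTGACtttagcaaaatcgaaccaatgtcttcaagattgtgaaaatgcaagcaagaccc

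TTGAC was present once in the BGL2 window and at 2 places in that of NUDT6. It was also present in 10527 of 20906 tested protein-coding genes (50.4%), in 317 of 587 lower genes (54.0%) and in 324 of 696 higher genes (46.6%). TGACG was present in the BGL2 window and not in that of NUDT6, in 21.9% of all tested protein-coding genes, in 23.2% of lower and in 21.7% of higher genes. These matches describe letters in a window and not binding.

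Of 29 tested genes that make and transmit SA, 2 fell and 0 rose, with a median log2 change of -0.41. EDS5, the transporter that exports the SA precursor from the chloroplast, had 25.5, 35.0 and 26.0 CPM in ka120 ndr1, against 60.1, 69.9 and 41.6 CPM in ka120, with no overlap (log2 change -0.99 ± 0.20, adjusted p = 0.0187). TGA3, a TGA factor that acts with NPR1, had 14.0, 16.9 and 12.9 CPM in ka120 ndr1, against 27.0, 28 and 18.8 CPM in ka120 (log2 change -0.75 ± 0.16, adjusted p = 0.0227). EDS16, the isochorismate synthase that starts SA synthesis, did not pass: it had 67.9, 100 and 69.9 CPM in ka120 ndr1, against 125, 124 and 88.8 CPM in ka120 (adjusted p = 0.314). PAD4 had 42.4, 64.4 and 42.2 CPM in ka120 ndr1, against 94.0, 107 and 54.6 CPM in ka120, with overlap between groups (log2 change -0.78 ± 0.30, adjusted p = 0.143). The number of SA genes that fell was 3 without ka120 replicate 3, 2 without ka120 ndr1 replicate 2 and 0 without any other single library.

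Among pipecolic acid and systemic acquired resistance genes, 0 of 7 passed in the edgeR fit, with a median of -0.70. ALD1, the enzyme that starts pipecolic acid synthesis, had 0.886, 1.16 and 0.359 CPM in ka120 ndr1, against 3.85, 5.22 and 2.17 CPM in ka120, which did not overlap (adjusted p = 0.0872). FMO1, which turns pipecolic acid into its active N-hydroxy form, had 1.8, 3.38 and 1.85 CPM in ka120 ndr1, against 4.64, 5.43 and 2.75 CPM in ka120, with overlap (adjusted p = 0.377). DESeq2 also called 0 members, and leaving out ka120 replicate 3 called 1 higher and 1 lower.

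Of 5 helper NLR genes 1 fell, ADR1, with 32.7, 38 and 39.2 CPM in ka120 ndr1, against 51.4, 55.0 and 43.4 CPM in ka120 (log2 change -0.45 ± 0.09, adjusted p = 0.0218). Among coiled-coil NLR genes, the class of most receptors that need NDR1, 1 of 34 fell and 0 rose, with a median of -0.16. That count is close to the 2.74% called lower over all genes tested. That gene was AT5G05400, with 3.07, 2.99 and 2.79 CPM in ka120 ndr1, against 5.26, 4.76 and 4.73 CPM in ka120 (log2 change -0.74 ± 0.15, adjusted p = 0.0185). Of 35 TIR-type NLR genes 2 fell, RPP1 by 0.29 and AT3G44670 by 0.31 on the log2 scale, and the list median was -0.19. SNC1, a TIR-type receptor that drives autoimmunity when active, had 233, 260 and 269 CPM in ka120 ndr1, against 291, 304 and 244 CPM in ka120, with overlap (adjusted p = 0.422). SNC1 lies near its relatives RPP4 and RPP5, and how reads were shared among them was not tested. Without ka120 replicate 2, ADR1 and AT5G05400 had adjusted p of 0.11 and 0.073. The 2 TIR-type calls were lost in 5 of the fits with 1 library left out, and without ka120 replicate 3 the count was 4.

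In the family of NDR1 and its HIN1-like relatives, 2 of 10 fell, NDR1 and AT1G65690. AT1G65690 had 2.4, 2.47 and 3.33 CPM in ka120 ndr1, against 9.95, 13.4 and 5.21 CPM in ka120 (log2 change -1.8 ± 0.39, adjusted p = 0.0251), and the groups did not overlap. AT2G27080, another relative, lay the other way with 5.81, 8.47 and 7.17 CPM in ka120 ndr1, against 3.33, 3.65 and 3.58 CPM in ka120, and did not pass (adjusted p = 0.0825). AT1G65690 missed the threshold without ka120 replicate 2, at an adjusted p of 0.12.

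Of 31 cysteine-rich receptor-like kinase genes 4 fell, CRK4, CRK18, CRK23 and CRK24, with a median of -0.47. CRK4 had 59.6, 67.2 and 77.7 CPM in ka120 ndr1, against 118, 114 and 88.1 CPM in ka120, and no overlap (adjusted p = 0.0286). Of 31 WRKY transcription factor genes 2 fell, WRKY6 and WRKY60, with a median of -0.53. Of 35 pattern-triggered immunity genes 1 fell, CPK28, a kinase that limits that response, with a median of -0.16. This too is close to the 2.74% called lower over all genes tested. None of these 7 genes kept its call in every fit with 1 library left out: the CRK count was 0 without ka120 ndr1 replicate 1 or 2 or ka120 replicate 1 or 2, and the WRKY count was 0 in the same fits.

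Of 18 genes that restrain immunity and cell death, 1 rose and 0 fell, with a median of -0.09. The gene was DND1, a cyclic nucleotide-gated channel whose loss gives constant defence without cell death. DND1 had 160, 183 and 131 CPM in ka120 ndr1, against 80.8, 76.4 and 101 CPM in ka120, with no overlap (log2 change 0.88 ± 0.13, adjusted p = 0.00713). Levels in ka120 pad4 were 136, 107 and 129 CPM and in Col-0 145, 160 and 143 CPM. It kept its call without each of the 6 libraries, and it lies in the chromosome 5 segment described below. Camalexin and indole glucosinolate genes gave 0 calls of 15 in the edgeR fit (median -0.17), where DESeq2 called 1 higher.

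Endoplasmic reticulum (ER) folding genes, which secretion of PR proteins needs, gave 2 lower calls of 25 and a median of -0.43, and the groups did not overlap for 14. Over all genes tested, 2.74% were called lower and the groups did not overlap for 29.4%. CRT1a, a calreticulin, had 335, 366 and 353 CPM in ka120 ndr1, against 492, 481 and 423 CPM in ka120 (log2 change -0.40 ± 0.10, adjusted p = 0.0419). EBS1, a glucosyltransferase of glycoprotein quality control, had 49.0, 49.8 and 49.7 CPM in ka120 ndr1, against 60.5, 62.6 and 61.0 CPM in ka120. EBS1 was thus lower in every ka120 ndr1 library by a narrow margin (log2 change -0.31 ± 0.07, adjusted p = 0.0337). The ER count was 4 without ka120 replicate 3, 1 without ka120 ndr1 replicate 3 and 0 without any other single library, and 10 in a fit to the 6 libraries of these groups alone.

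**Figure D3:**
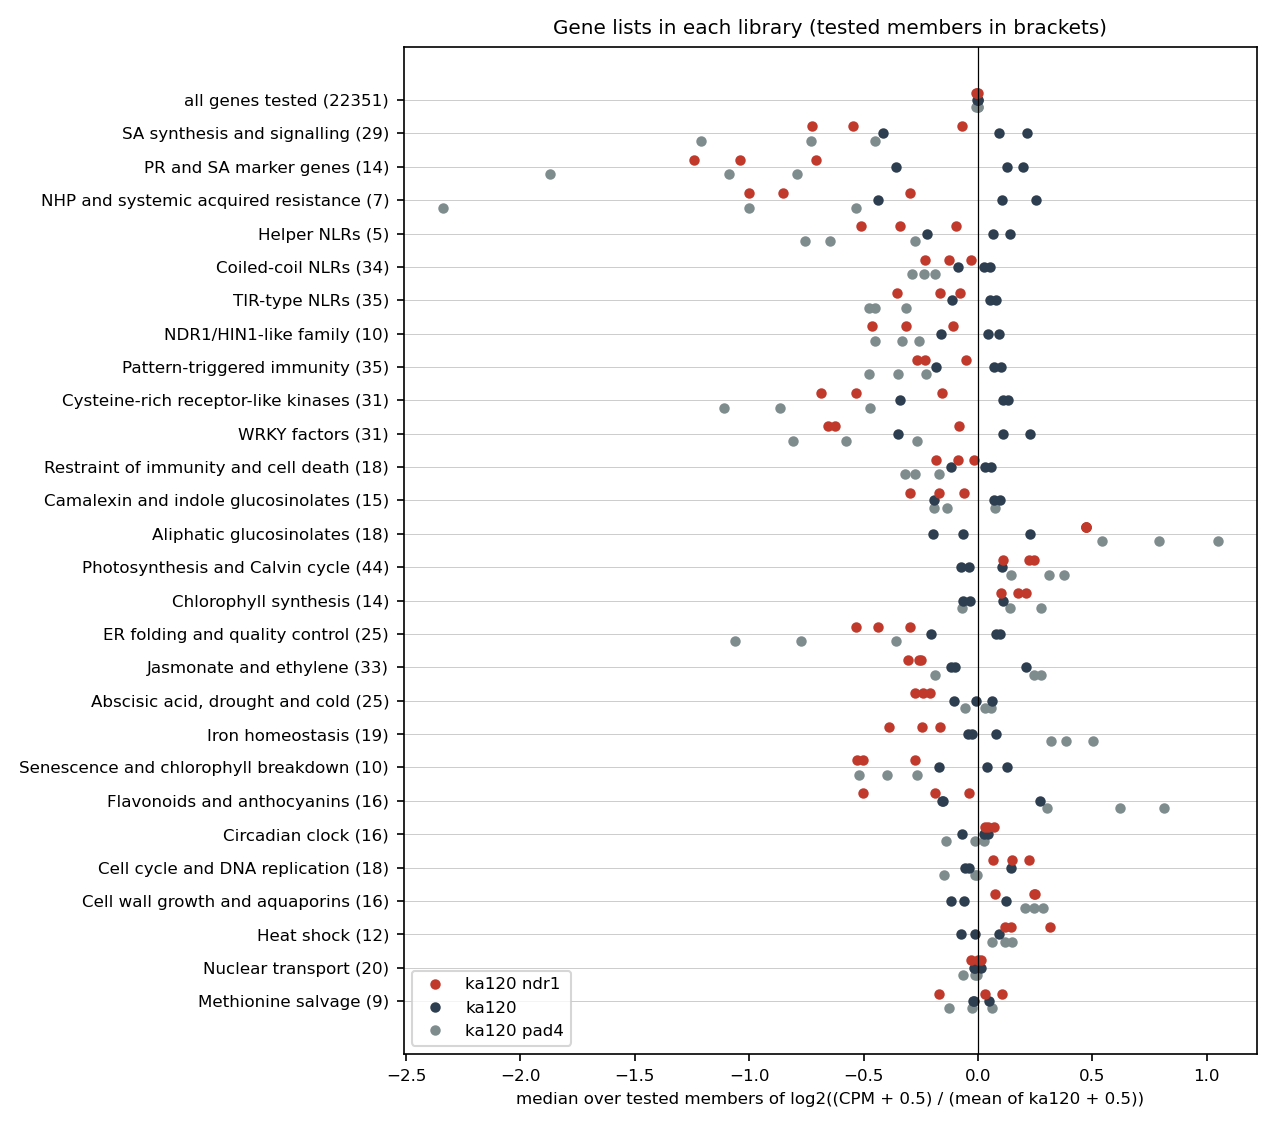
Median over the tested members of each gene list of log2((CPM + 0.5) / (mean ka120 CPM + 0.5)) in each library (horizontal axis), 1 row per list and 1 point per library of ka120 ndr1, ka120 and ka120 pad4. In the PR and SA marker row ka120 ndr1 lies at -1.24, -0.71 and -1.04 and ka120 at 0.12, 0.20 and -0.36, and ka120 replicate 3 is the ka120 library nearest ka120 ndr1 in most immune rows.

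Aliphatic glucosinolate genes make the methionine-derived defence compounds of the cabbage family. Of 18 tested, 6 rose in ka120 ndr1, 0 fell and 12 did not pass, with a median log2 change of 0.46, and the groups did not overlap for 16. The shares over all genes tested were 3.2% called higher and 29.4% not overlapping. MYB29, a transcription factor that activates the pathway, had 33.4, 31.6 and 30.4 CPM in ka120 ndr1, against 21.8, 18.1 and 24.0 CPM in ka120 (log2 change 0.58 ± 0.12, adjusted p = 0.0194). Its Col-0 levels of 50.1, 50.2 and 52.3 CPM lay above both. FMO GS-OX3, which oxidises the side chain, had 48.8, 60.8 and 67.2 CPM in ka120 ndr1, against 33.1, 31.8 and 39.3 CPM in ka120 (log2 change 0.76 ± 0.13, adjusted p = 0.0123). CYP83A1, a core pathway oxidase, had 285, 302 and 280 CPM in ka120 ndr1, against 193, 199 and 239 CPM in ka120.

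The other 3 aliphatic glucosinolate genes that rose were SOT17, a sulfotransferase of the last core step, by 0.59, IMS2 (MAM3), a chain-elongation synthase, by 0.67, and AT2G31790, a glucosyltransferase, by 0.49. FMO GS-OX3 was lower in ka120 ndr1 than in ka120 pad4, at 113, 84.7 and 97.6 CPM in ka120 pad4 (log2 difference -0.74, adjusted p = 0.0163). The per-library medians of the list were 0.47 in each ka120 ndr1 library, -0.07, -0.20 and 0.23 in ka120 and 1.05, 0.54 and 0.79 in ka120 pad4. The count of 6 became 16 without ka120 replicate 3, 1 or 2 without 1 of the ka120 ndr1 libraries, and 0 without ka120 replicate 1 or 2.

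Of 44 tested photosynthesis genes, 4 rose and 0 fell, with a median of 0.18, and the groups did not overlap for 25. Over all genes tested, 3.2% were called higher and 29.4% did not overlap. LHCA4, a light-harvesting protein of photosystem I, rose by 0.25, LHCB4.1 and LHCB4.2 of photosystem II by 0.27 and 0.30, and PETC, the Rieske protein of the cytochrome b6f complex, by 0.29 on the log2 scale. LHCB4.2 had 1481, 1349 and 1421 CPM in ka120 ndr1, against 1108, 1121 and 1217 CPM in ka120. All 44 genes stayed below Col-0 in ka120 ndr1 by the test against Col-0, as in ka120. These 4 calls were lost without any 1 of the libraries other than ka120 replicate 3 and in limma on the authors' log2 values; DESeq2 called 12.

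Of 14 chlorophyll synthesis genes 3 rose and 2 fell, with a median of 0.14. HEMA1, the first committed enzyme of tetrapyrrole synthesis, had 676, 594 and 575 CPM in ka120 ndr1, against 488, 465 and 511 CPM in ka120 (log2 change 0.33 ± 0.08, adjusted p = 0.0352). HEMA1 was also higher in ka120 ndr1 than in ka120 pad4 (434, 409 and 432 CPM; log2 difference 0.53, adjusted p = 0.00771). CHLM and CRD1, enzymes of the magnesium branch, rose by 0.40 and 0.31. PORA, a light-dependent reductase best known from etiolated seedlings, fell by 1.01, and GPRI1 (GLK1), a transcription factor of chloroplast genes, fell by 0.30. Without ka120 replicate 1 or 2, 0 of the 14 were called. The 2 lower calls became at most 1 in every fit with 1 library left out. Without ka120 replicate 3, 4 members were called higher and 1 lower.

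**Figure D4:**
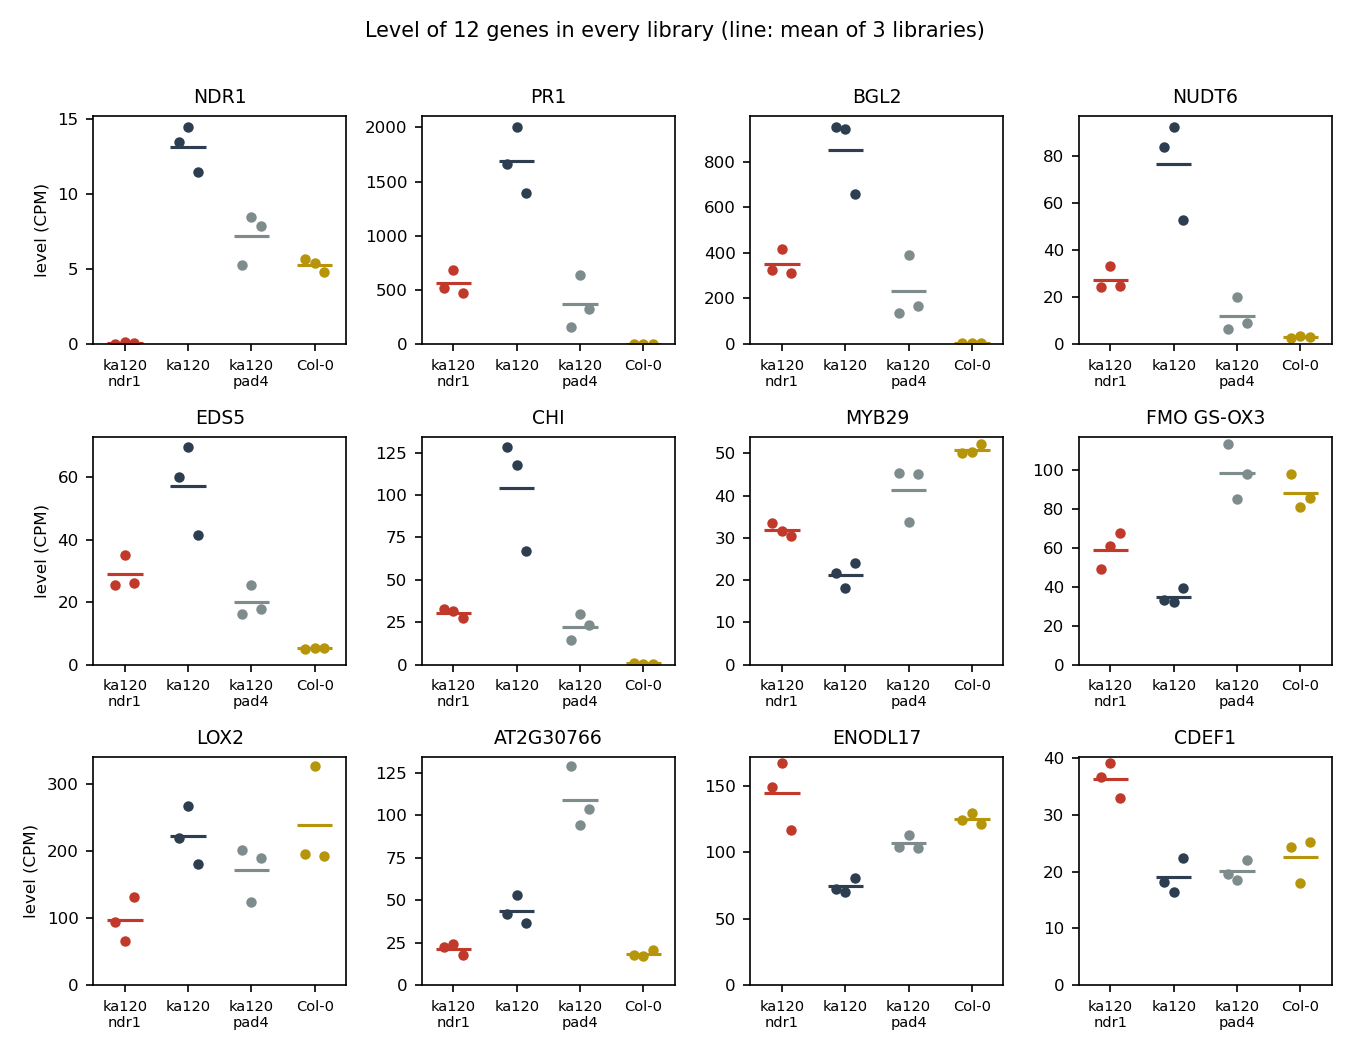
Level in CPM of 12 genes in every library (points) with the mean of 3 libraries (line), for ka120 ndr1, ka120, ka120 pad4 and Col-0. PR1, BGL2, NUDT6, EDS5 and CHI are lower in all ka120 ndr1 than in all ka120 libraries, and MYB29, FMO GS-OX3, ENODL17 and CDEF1 are higher.

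Hormone lists beside SA also gave calls. In the jasmonate and ethylene list 4 of 33 fell and 0 rose, with a median of -0.27, and the groups did not overlap for 16. Over all genes tested, 2.74% were called lower and 29.4% did not overlap. LOX2, the chloroplast lipoxygenase of jasmonate synthesis, had 94.6, 65.5 and 132 CPM in ka120 ndr1, against 220, 267 and 180 CPM in ka120 (log2 change -1.19 ± 0.28, adjusted p = 0.0304). AOC3, an allene oxide cyclase of the same pathway, fell by 1.48, and the jasmonate-responsive NATA1 and TAT3 by 2.45 and 2.03. TAT3 levels varied widely, with 13.0, 20.7 and 8.83 CPM in ka120 ndr1, against 54.7, 93.2 and 25.6 CPM in ka120. The count was 7 without ka120 replicate 3, 2 without ka120 ndr1 replicate 3 and 0 without any other single library.

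Of 25 abscisic acid, drought and cold genes 1 rose and 1 fell, with a median of -0.31. CYP707A3, which breaks down abscisic acid, had 7.72, 9.88 and 8.16 CPM in ka120 ndr1, against 3.76, 3.68 and 3.41 CPM in ka120, with no overlap (log2 change 1.25 ± 0.24, adjusted p = 0.0166). Its relative CYP707A2 had 18.8, 17.2 and 18.4 CPM in ka120 ndr1, against 26.2, 24.2 and 26.9 CPM in ka120, a fall of 0.51 that passed in every fit. LTP3, a lipid transfer protein induced by drought, fell by 1.31. Without ka120 replicate 2, CYP707A3 had an adjusted p of 0.078.

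Of 19 iron homeostasis genes 3 fell and 0 rose, with a median of -0.46. AT2G30766, a small protein placed in the iron list, had 22.2, 24.2 and 17.9 CPM in ka120 ndr1, against 41.9, 53.0 and 36.6 CPM in ka120 (log2 change -1.03 ± 0.16, adjusted p = 0.00713). In ka120 pad4 it stood at 129, 93.9 and 103 CPM and in Col-0 at 17.7, 16.9 and 20.6 CPM, so the order ran ka120 pad4, ka120, then ka120 ndr1 beside Col-0. The difference between ka120 ndr1 and ka120 pad4 was -2.34 (adjusted p = 5.63e-05). PYE, a regulator of the iron response, fell by 0.46, and NAS3, a nicotianamine synthase, by 0.67. In all, 10 of the 19 were lower in ka120 ndr1 than in ka120 pad4 and 1 was higher, beside 1.51% and 0.886% over all genes tested. Against ka120, ka120 pad4 itself had 9 of the 19 higher and 2 lower, beside 2196 and 1876 of 22351 genes tested. The difference between the double mutants thus includes a rise in ka120 pad4. BHLH100, a factor induced by iron shortage, had 0 counts in all ka120 ndr1 libraries, against 0.188, 0.256 and 0.0454 CPM in ka120, and did not pass (adjusted p = 0.0507). The call of AT2G30766 held without each of the 6 libraries.

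Senescence and chlorophyll breakdown genes gave 3 lower calls of 10 and a median of -0.48. NAP, a NAC factor that promotes leaf senescence, had 2.55, 3.80 and 1.98 CPM in ka120 ndr1, against 8.48, 9.86 and 5.57 CPM in ka120 (log2 change -1.53 ± 0.27, adjusted p = 0.0123). ACD1, the pheophorbide oxygenase of chlorophyll breakdown, fell by 0.47 and BCB, a blue copper protein, by 0.93. These 3 calls were all lost without ka120 ndr1 replicate 1 and without ka120 replicate 1 or 2. MYB90, an activator of anthocyanin genes, was the only 1 of 16 flavonoid genes to pass, with 1.13, 0.471 and 1.32 CPM in ka120 ndr1, against 3.41, 3.57 and 5.11 CPM in ka120 (log2 change -2.04 ± 0.41, adjusted p = 0.0187; without ka120 replicate 2, 0.066). It was lower also than in ka120 pad4 (4.13, 4.73 and 9.23 CPM; log2 difference -2.62, adjusted p = 0.00903).

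Of 16 cell wall growth and aquaporin genes 3 rose and 1 fell, with a median of 0.23. XTH4, a wall-loosening enzyme, rose by 0.50 and the aquaporins PIP1A and PIP2A by 0.36 and 0.46, calls that were lost in each fit without 1 library other than ka120 replicate 3. IAA29, an auxin-induced gene, had 2.99, 2.83 and 2.91 CPM in ka120 ndr1, against 6.29, 5.12 and 6.02 CPM in ka120, and kept its call in all of them (log2 change -1.0 ± 0.16, adjusted p = 0.00806). Of 12 heat shock genes 2 rose, with a median of 0.47. HSFA2, a heat shock factor, had 5.98, 5.85 and 2.43 CPM in ka120 ndr1, against 1.48, 1.03 and 1.88 CPM in ka120 (log2 change 1.70 ± 0.39, adjusted p = 0.0292). HSP101, a disaggregating chaperone, rose by 0.50, and neither passed without ka120 replicate 1 or 2.

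Among 20 nuclear transport genes, 1 rose: XPO1A, the main exportin, with 158, 167 and 149 CPM in ka120 ndr1, against 126, 123 and 132 CPM in ka120 (log2 change 0.31 ± 0.06, adjusted p = 0.0131; 0.075 without ka120 replicate 2). XPO1A lies in the chromosome 5 segment described below. Circadian clock genes (16), cell cycle genes (18) and methionine salvage genes (9) gave 0 calls in the edgeR fit, with medians of 0.04, 0.16 and -0.12; DESeq2 called 1 methionine salvage gene higher and 2 lower. ARD3, a dioxygenase of methionine salvage, had 58.1, 106 and 59.9 CPM in ka120 ndr1, against 89.0, 106 and 74.8 CPM in ka120 and 3.76, 22.8 and 5.20 CPM in ka120 pad4. It overlapped between ka120 ndr1 and ka120 (adjusted p = 0.79) and was higher in ka120 ndr1 than in ka120 pad4 (log2 difference 2.81, adjusted p = 0.0206).

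Markers of root, shoot meristem, flower and seed, and guard cell, epidermis and phloem gave 0 calls in the edgeR fit among 5, 4, 6 and 11 tested genes, and DESeq2 called 1 flower marker lower. Summed levels were 51.3 to 59.5 CPM in ka120 ndr1 and 52.2 to 55.9 CPM in ka120 for root, and 50.0 to 60.3 and 45.0 to 54.8 CPM for shoot meristem. Flower and seed markers summed to 10.7 to 13.3 CPM in ka120 ndr1 and 9.75 to 12.8 CPM in ka120, with 4 and 2 of 10 at 0. Guard cell, epidermis and phloem markers summed to 621 to 665 CPM in ka120 ndr1 and 561 to 617 CPM in ka120, where the groups did not overlap. ACT2, 1 of 8 reference genes, was higher in ka120 ndr1 by 0.23. For 5 of these 8 the groups did not overlap, beside 29.4% over all genes tested, and their log2 changes ran from -0.73 to 0.23.

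Of the 24 genes picked for large changes among those with a symbol, the higher group was led by RABA6b, a Rab GTPase of membrane traffic, with 4.57, 5.97 and 5.53 CPM in ka120 ndr1, against 1.84, 1.70 and 2.59 CPM in ka120. It rose by 1.39 ± 0.30 (adjusted p = 0.025). XTH15, a wall enzyme, had 7.78, 5.99 and 10.6 CPM in ka120 ndr1, against 2.71, 3.13 and 4.49 CPM in ka120, and was higher also than in ka120 pad4 (log2 difference 1.70, adjusted p = 0.0109). BOU, a mitochondrial carrier needed for photorespiration, had 190, 103 and 191 CPM in ka120 ndr1, against 79.6, 72.4 and 88.2 CPM in ka120. CYP78A6, PAP3, CIPK20 and GSTF11 rose by 1.17, 0.98, 0.87 and 0.82, and the other 5 higher genes (CYP707A3, ENODL17, CDEF1, HSD3 and DND1) are given elsewhere. The 7 genes with values in this paragraph (RABA6b, XTH15, BOU, CYP78A6, PAP3, CIPK20 and GSTF11) all missed the threshold without ka120 replicate 2, at adjusted p of 0.082 to 0.16.

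On the lower side, after NDR1, came MIR2936, with 0.373, 0.485 and 0.371 CPM in ka120 ndr1, against 34.1, 0.948 and 0.523 CPM in ka120. Its fold rests on ka120 replicate 1: without it the log2 change was -0.85 in place of -4.86 and the adjusted p was 0.4. XTH10, a wall enzyme, had 1.68, 1.51 and 1.03 CPM in ka120 ndr1, against 5.50, 10.9 and 2.54 CPM in ka120 (log2 change -2.17 ± 0.45). RLP7, a receptor-like protein, had 2.1, 3.13 and 1.92 CPM in ka120 ndr1, against 8.88, 10.1 and 6.74 CPM in ka120, and at most 0.0651 CPM in Col-0 (log2 change -1.85 ± 0.32, adjusted p = 0.0123; 0.066 without ka120 replicate 2).

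AATP1, an ATPase of the AAA type, had 2.46, 1.86 and 2.55 CPM in ka120 ndr1, against 7.06, 11.3 and 5.27 CPM in ka120. In ka120 pad4 it had 0.221, 0.242 and 0.357 CPM and in Col-0 it was at 0, so ka120 ndr1 lay between ka120 and ka120 pad4. It was lower than in ka120 (log2 change -1.78 ± 0.29, adjusted p = 0.0123; 0.053 without ka120 replicate 2) and higher than in ka120 pad4 (log2 difference 3.06, adjusted p = 0.00367). HIPP22, AMY1, SAG13 and TAT3 fell by 1.95, 1.87, 1.96 and 2.03. Without ka120 replicate 2 these and XTH10 had adjusted p of 0.083 to 0.19.

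The 110 genes that passed under all 13 alternatives beside the fit as reported were a group seen only after their values were known, and are described without a further test. They comprised 74 lower and 36 higher genes. Of the 74 lower genes 18 were lower than in ka120 pad4 and 56 did not pass against ka120 pad4. Of the 36 higher genes 7 were higher than in ka120 pad4, 1 was lower and 28 did not pass. Over all genes tested, 1.51% were lower and 0.886% higher than in ka120 pad4. The same ka120 ndr1 libraries enter both comparisons, so these counts are not independent of how the 110 genes were chosen.

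Of the lower genes, CHI, a chitinase, had 32.7, 31.4 and 27.2 CPM in ka120 ndr1, against 128, 118 and 67.1 CPM in ka120, with Col-0 at 1.04 CPM or less (log2 change -1.78 ± 0.29, adjusted p = 0.00941). PRXCB, a cell wall peroxidase that makes reactive oxygen in immunity, had 119, 127 and 136 CPM in ka120 ndr1, against 341, 361 and 260 CPM in ka120 (log2 change -1.33 ± 0.19, adjusted p = 0.00485). The receptor-like proteins RLP28, RLP32 and RLP19 fell by 1.59, 1.08 and 0.90. RLP28 had 2.85, 3.33 and 4.45 CPM in ka120 ndr1, against 12.2, 10.1 and 9.66 CPM in ka120, and 0 in Col-0. AT3G26470, a protein with an RPW8 domain as helper NLR proteins carry, fell by 1.13, and NSP5, which steers glucosinolate breakdown to nitriles, by 0.84.

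The largest fall among them, leaving out NDR1 and ribosomal RNA, was that of AT3G10320, annotated as a glycosyltransferase of family 61, with 0.327, 0.249 and 0.599 CPM in ka120 ndr1, against 3.41, 3.86 and 3.77 CPM in ka120. AT2G44240, annotated with a DUF239 domain, had 3.07, 6.64 and 6.56 CPM in ka120 ndr1, against 40.8, 44.4 and 36.0 CPM in ka120 (log2 change -2.90 ± 0.32, adjusted p = 0.0021). Its ka120 pad4 levels of 3.84, 7.33 and 7.17 CPM overlapped those of ka120 ndr1 (log2 difference -0.18, adjusted p = 0.82). Col-0 held at most 0.0674 CPM, so ka120 ndr1 and ka120 pad4 lay below ka120 but above Col-0. The log2 difference of ka120 ndr1 from Col-0 was 7.90 (adjusted p = 1.47e-06).

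PYD4, an aminotransferase named for pyrimidine breakdown, had 1.64, 0.443 and 1.37 CPM in ka120 ndr1, against 5.44, 6.29 and 5.87 CPM in ka120 (log2 change -2.34 ± 0.34, adjusted p = 0.00586), and was lower also than in ka120 pad4 (-1.68, adjusted p = 0.0271). SULTR1;2, a sulfate transporter, had 2.53, 1.48 and 2.91 CPM in ka120 ndr1, against 7.05, 7.91 and 8.65 CPM in ka120 (log2 change -1.76 ± 0.25, adjusted p = 0.00481). PGDH, an enzyme of serine synthesis, fell by 1.47, GolS1, which makes galactinol, by 1.00, and NIA1, a nitrate reductase, by 0.81. NIA1 had 64.4, 55.9 and 73.1 CPM in ka120 ndr1, against 116, 118 and 106 CPM in ka120 and 114, 123 and 128 CPM in Col-0.

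CYP89A9, which acts on chlorophyll catabolites, had 12.2, 16.5 and 12.6 CPM in ka120 ndr1, against 47.6, 46.5 and 35.9 CPM in ka120 (log2 change -1.65 ± 0.24, adjusted p = 0.00564). PES2, which esterifies phytol, fell by 1.36, and CLH2, a chlorophyllase, by 1.05. MAF5, a flowering repressor related to FLC, had 2.26, 3.30 and 1.83 CPM in ka120 ndr1, against 7.72, 8.13 and 8.81 CPM in ka120. MAF5 stood at 13.0, 14.6 and 12.3 CPM in ka120 pad4 and at 8.84, 11.9 and 8.35 CPM in Col-0, so ka120 ndr1 lay below all other genotypes (log2 change against ka120 -1.74 ± 0.20, adjusted p = 0.0021; against ka120 pad4 -2.44).

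Of the 36 higher genes, 11 lay in the chromosome 5 segment described below. CDEF1, a cutinase, had 36.7, 39.1 and 33.0 CPM in ka120 ndr1, against 18.1, 16.5 and 22.4 CPM in ka120 and 19.5, 18.6 and 22.0 CPM in ka120 pad4 (log2 change 0.93 ± 0.14, adjusted p = 0.00642). HSD3, a steroid dehydrogenase-like protein, had 5.71, 5.68 and 6.11 CPM in ka120 ndr1, against 3.04, 3.03 and 3.16 CPM in ka120. AT3G05727 had 120, 115 and 102 CPM in ka120 ndr1, against 65.9, 55.0 and 57.0 CPM in ka120, and was higher than in ka120 pad4 as well (log2 difference 1.00, adjusted p = 0.004). PnsL2 and NdhT, subunits of the chloroplast NDH complex, rose by 0.71 and 0.61, and THIC, an enzyme of thiamin synthesis, by 0.61. THIC had 261, 254 and 228 CPM in ka120 ndr1, against 157, 160 and 169 CPM in ka120. ARR6, a cytokinin response regulator, rose by 0.71.

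A long segment of chromosome 5 held many of the higher genes. It was noticed from the fold changes themselves, so its values are a description and no test was made. Among genes with at least 5 CPM, the running median of log2 fold change over 21 neighbouring genes stayed above 0.2 for 144 genes in a row, from AT5G15170 to AT5G17300 (chromosome 5, 4925850 to 5692992, TAIR10.1, 767.1 kb). The next longest such stretch in the genome had 10 genes, on chromosome 4. NDR1 and KA120 lie on chromosome 3.

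Within the segment, 70 of 200 tested genes were called higher (35.0%) and 1 lower, against 641 of 21913 tested nuclear genes elsewhere (2.925% higher). Thus 9.79% of all higher calls came from this segment. Of its 144 genes with at least 5 CPM, 136 had a log2 fold change above 0, with a median of 0.42 and quartiles of 0.26 and 0.55, and the groups did not overlap for 101 (70.14%, against 32.48% elsewhere). The 40 genes just before it had a median of 0.01 and the 40 just after it a median of 0.05, with 4 and 3 called higher.

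By library, the median log2 ratio to the ka120 mean over these genes was 0.35, 0.58 and 0.23 in ka120 ndr1 replicates 1, 2 and 3, which is 1.27-fold, 1.5-fold and 1.17-fold. It lay between -0.01 and 0.00 in ka120, between -0.01 and 0.01 in ka120 pad4, and between 0.03 and 0.06 in Col-0. The ka120 libraries centre near 0 because their own mean is the reference, so only their spread is informative. Genes elsewhere had medians within 0.02 of 0 in every library. The shift was thus seen in all 3 ka120 ndr1 libraries, to different extents, while the libraries of ka120 pad4 and Col-0 lay near 0. The cause of the shift was not tested.

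**Figure D5:**
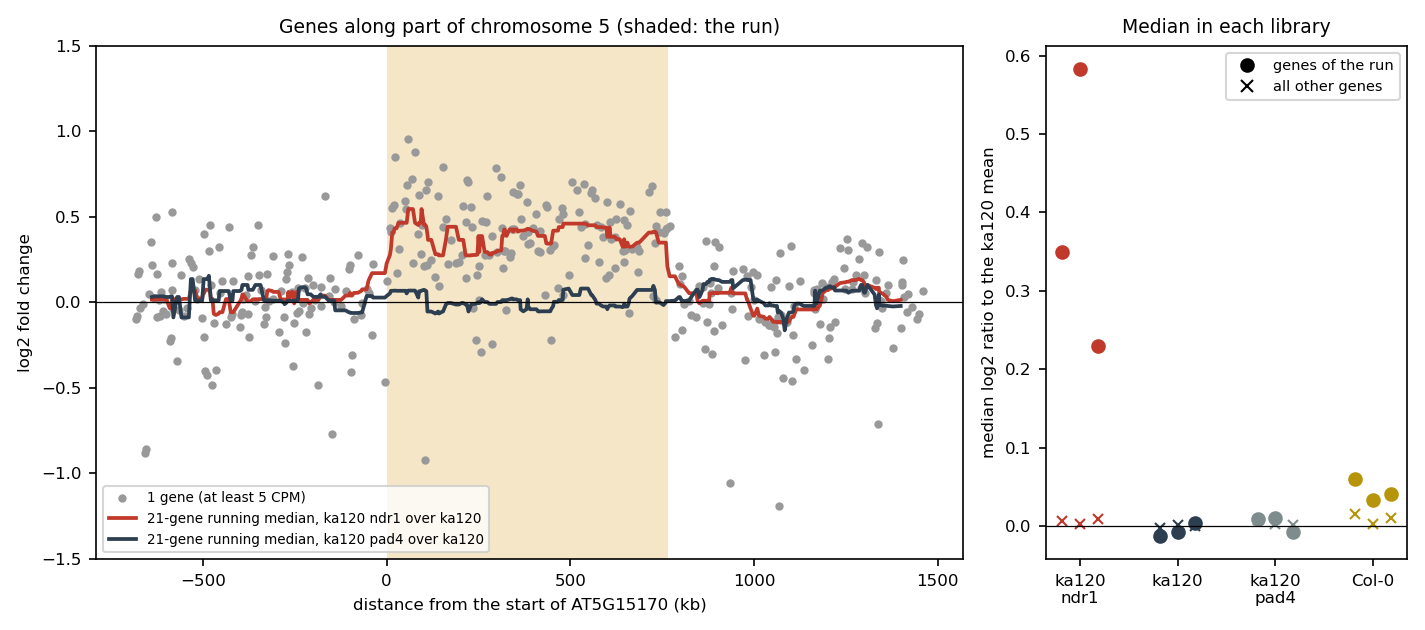
Left, log2 fold change of single genes with at least 5 CPM along chromosome 5 against the distance in kb from the start of AT5G15170, with 21-gene running medians for ka120 ndr1 over ka120 and ka120 pad4 over ka120; the shaded segment is 767.1 kb long. Right, the median log2 ratio to the ka120 mean in each library for genes of the segment and for all others. For the segment, ka120 ndr1 lies at 0.35, 0.58 and 0.23, ka120 pad4 and Col-0 lie near 0, and ka120 is the reference.

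Genes of the segment that passed under all alternatives numbered 11. ENODL17, an early nodulin-like protein, had 149, 167 and 117 CPM in ka120 ndr1, against 72.4, 70.2 and 80.6 CPM in ka120 (log2 change 0.95 ± 0.11, adjusted p = 0.0021). CLPB3, a chloroplast chaperone, had 268, 309 and 234 CPM in ka120 ndr1, against 173, 176 and 175 CPM in ka120 (log2 change 0.63 ± 0.09, adjusted p = 0.00476). CAC1, a subunit of the chloroplast acetyl-CoA carboxylase, had 101, 111 and 88.9 CPM in ka120 ndr1, against 68.3, 64.5 and 70.6 CPM in ka120. VAT1 and DHAR3 rose by 0.51 and 0.64, and DND1 and XPO1A belong to the same segment. In ENODL17, DND1, CLPB3, CAC1 and XPO1A alike, ka120 ndr1 replicate 2 was the highest library and replicate 3 the lowest of the 3. Without ka120 ndr1 replicate 2 the median of the segment was 0.29 with 33 genes called higher, and without replicate 3 it was 0.50 with 73; the count was 22 without ka120 ndr1 replicate 1, and 13, 12 and 68 without ka120 replicate 1, 2 or 3. Outside the segment 645 genes were called higher and 611 lower.

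Some genes with large folds set ka120 apart from all other genotypes. AT2G01010, annotated as 18S ribosomal RNA, had 0.0816, 0.111 and 0.0839 CPM in ka120 ndr1, against 424, 429 and 400 CPM in ka120, and at most 0.118 CPM in ka120 pad4 and Col-0. ENSRNA049494572, an identifier that the reference does not annotate, ran the other way, with 620, 565 and 511 CPM in ka120 ndr1, against 0.0822, 0.0852 and 0.0682 CPM in ka120. AT1G08360, a ribosomal protein of the L1p/L10e family, had 400.0, 400.0 and 395 CPM in ka120 ndr1, against 9.45, 9.05 and 9.18 CPM in ka120, and 116 to 366 CPM in ka120 pad4 and Col-0. In these 3 genes ka120 stood apart from the other genotypes; ribosomal genes can share reads with near-identical copies, which was not tested and makes their counts uncertain. Annotated ribosomal RNA took 0.102% to 0.121% of counts in ka120 ndr1 and 0.130% to 0.141% in ka120.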

How the data were processed

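The submitters' processing notes name the tools HISAT2 2.0.4 and HTSeq 0.6.1p1 and the build TAIR10, with no roles, strand setting or annotation release. The deposited count table was taken to give expected counts per gene, already whole, and between 45.7% and 48.1% of values from 4 to 40 were multiples of 4, for an unknown reason. A second table deposited by the authors gives log2 values for 22605 genes, each the log2 of count plus 0.5 over a constant per library, used for 1 alternative. A total of 34262 genes were listed. Symbols, coordinates and upstream sequences came from the RefSeq TAIR10.1 genome, which matched 32548 identifiers and left 1714 unmatched. The reference gives AT3G08960 no name; that it is KA120 was taken from background knowledge.

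Counts were fitted in R 4.3.3 with edgeR 4.0.16 (quasi-likelihood F test, TMM factors, filterByExpr) over all 12 libraries, with 1 coefficient per genotype and 8 residual degrees of freedom; 22351 genes were tested and called at a Benjamini-Hochberg adjusted p under 0.05. The fit was tested on simulated data, where it recovered 81 of 100 genes set to a log2 change of 1 and 99 of 100 set to 2. It also called 8 unchanged genes. Smaller changes were not simulated. The genes set to change were drawn only from those above a minimum mean count, so recovery among genes with fewer counts was not measured. All groups were drawn from the ka120 mean, so the unevenness of the ka120 libraries was not reproduced. The SE is the log2 fold change, without its sign, divided by the root of F. Levels are CPM from the counts and effective library sizes, and are not corrected for gene length, so levels of different genes were not compared.

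Genes and lists were chosen with earlier results of these data known. Named by rule were, per direction, the 12 called genes of largest fold with a symbol, no overlap between groups and at least 5 CPM in the higher group, the 3 members of each list with the largest fold, and NDR1, KA120, PAD4, PR1 and SNC1. Other names are called list members, genes called under every alternative or members of the chromosome 5 segment, chosen after their values were seen. Alternatives were RLE factors, no filter, DESeq2 1.42.0, limma 3.58.1, a fit to 6 libraries, a block by replicate number, single libraries left out and, added later, counts divided by 4. Promoter windows are the 300 bases before each annotated start; some sequences are not reported here. Figures were drawn with matplotlib 3.10.9 in Python 3.11.15.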

Additional observations from a re-analysis of the deposited data

How the results depend on the processing

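The comparison gave 1327 calls (715 higher, 612 lower; 53.9% higher). DESeq2 gave 2576 (1312 higher, 1264 lower) and shared 1320 of the 1327. Leaving out 1 library gave 136 to 2232 calls, 47 to 1249 of them higher and 89 to 983 lower, lowest without ka120 replicate 2 and highest without ka120 replicate 3; the cause was not tested beyond the fewer samples of such fits. RLE factors gave 1279, no filter 1079, limma on the authors' log2 values 1277 and counts divided by 4 1674 (chosen after seeing the data). A fit to the 6 libraries gave 1211, of which 42.7% were higher. The replicate number as a block gave 1344. Same-numbered libraries correlated at -0.00906, 0.0648 and 0.0538 in their deviations from the group means, and differently numbered ones at -0.116 to 0.0723. Such correlations cannot show whether libraries of 1 number were handled together, so pairing remains unknown. No call changed sign under any alternative. Among named genes, 186 values lost and 51 gained a call. The direction reversed only for genes that were not called: SHV2 AT5G49270 (-0.0126 without ka120 ndr1 replicate 2; -0.411 to 5.77 over all single libraries left out), EIR1 AT5G57090 (0.0343 without ka120 ndr1 replicate 2; -0.302 to 0.0548), CLV3 AT2G27250 (-0.442 in limma; -4.43 to 1.3), BSMT1 AT3G11480 (-7.73 to 0.926) and AT3G08960 (-0.14 to 0.0267). The chromosome 5 segment held 70 higher calls, 53 to 86 under the other fits (chosen after seeing the data) and 12 to 73 with 1 library left out. Its median fold kept its sign in all, which the choice of the segment from these same fold changes favoured. Genes near 0 counts, such as CLV3 and BSMT1, rest on few counts, so their fold changes are uncertain.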
